A study of Homo sapiens with 6 samples.

Results

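The MCM and GINS genes encode most of the replicative DNA helicase: MCM2, MCM3, MCM4, MCM5, MCM6 and MCM7 form its ring, and GINS1, GINS2, GINS3 and GINS4 form the complex that activates the ring. They were taken as every probe set of the deposited table whose only gene symbol was 1 of these 10. This gave 30 of 49395 probe sets, 21 for the MCM genes and 9 for the GINS genes, and 10 of 18132 genes. The cells were HCT116, an established human colorectal cancer line, transduced with lentivirus for 72 h. The lentivirus carried either a control short hairpin RNA (shRNA), here sh-Ctrl, or an shRNA against PNO1, here sh-PNO1; PNO1 is a nucleolar protein of small ribosomal subunit maturation. Each group held 3 samples and each sample 1 Affymetrix array, so both groups shared the line, the viral transduction and the time. All values come from 1 cell line, and no label states that replicates came from separate cultures. The p-values therefore describe array-to-array spread, part or all of which can be technical.

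In a dividing cell the MCM proteins are loaded onto replication origins in G1 as an inactive double ring around DNA. At the onset of S phase, CDC45 and the 4-part GINS complex join each ring to make the active helicase, called CMG, which unwinds the parental strands ahead of the polymerases. Transcription of most of these genes is a textbook target of the E2F factors and rises in cells that enter S phase, and high MCM protein is used as a marker of proliferating cells in colorectal tissue.

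The hairpin lowered its target. PNO1 had an intensity of 535, 535 and 532 on the sh-Ctrl arrays and of 105, 108 and 105 on the sh-PNO1 arrays (log2 difference −2.33 ± 0.04 SE, limma adjusted p = 1.89e-07). The median intensity of the arrays was 25.6 to 25.9. Of the epithelial markers, EPCAM, KRT8, KRT18 and KRT19 had sh-Ctrl means of 1878 to 2469, CDH1 of 232 and CDX2 of 63.3, while VIL1 stood at 4.88. The 5 fibroblast and 3 blood cell markers had sh-Ctrl means of 3.52 to 17.7. In RNA from a whole culture, fewer cells in S phase and less of these RNAs in each cell cannot be told apart. The gap between the 3′ and 5′ control probe sets of ACTB, which bears on RNA integrity, was 2.25 (log2) in sh-PNO1 replicate 2 and 1.73 to 1.87 in the remaining 5 arrays. The same gap for GAPDH was −0.08 to −0.01 on all 6 arrays, and −0.08 in that replicate. The part of the ACTB gap in the results was not tested, and counts without this array stand beside the main counts.

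The promoters of these genes share a sequence feature that the rule did not use. RefSeq start sites (build GRCh38.p14) were at hand for 7 of the 10 genes, GINS1, GINS2, GINS3, MCM2, MCM3, MCM6 and MCM7, with 9 starts in all. The window from 250 bases before to 50 bases after each start was searched on both strands for the E2F-type words TTTCCCGC, TTTGGCGC, TTTCGCGC and TTTGCCGC, the NF-Y word CCAAT and the CHR word TTTGAA. Counted by start, 7 of the 9 had an E2F-type match, while 1164 of 35116 starts in the whole table (3.31%) had one. Counted by gene, with a match at any start, it was 7 of 7, against 797 of the 14425 genes with both an entry and a probe set (5.53%). CCAAT was found at 7 of the 9 starts and at 34.6% of all starts, or in 5 of the 7 genes and 42.4% of all genes. TTTGAA was found at 0 of the 9 starts and at 15.2% of all starts. A match is a description of the letters, not a bound site. The E2F-type matches are printed on the gene's own strand, 5′ to 3′, with the match or 2 overlapping matches in capitals and 6 flanking bases on each side, because the 6 of these genes that fell and the one that rose, MCM6, all hold one.
GINS1 at chr20:25407672-25407691 (+): tgttcgGCGCCAAAgcgcgg
GINS2 at chr16:85688972-85688991 (-): gccgtgGCGGGAAAacggcg
GINS3 at chr16:58392460-58392479 (+): ccgggcGCGGGAAAcgagtt
MCM2 at chr3:127598407-127598430 (+): accactTTTCGCGCGAAAcctggt
MCM3, far match at chr6:52284903-52284922 (-): ggtacgTTTCCCGCcaccgc
MCM3, near match at chr6:52284733-52284752 (-): ggaagtTTTCGCGCcggggt
MCM6, far match at chr2:135876578-135876601 (-): tttgcaTTTGGCGCGAAAtccctt
MCM6, near match at chr2:135876516-135876539 (-): gtcaggTTTGGCGCGAAAtctcca
MCM7, far match at chr7:100101571-100101590 (-): cggaccGCGGGAAAcccggc
MCM7, near match at chr7:100101393-100101412 (-): gcgacgTTTCGCGCcaattt

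In MCM2 and MCM6 a match on one strand overlapped a match on the other, which makes a run of 12 bases. MCM6 had this twin match at 2 places, from 152 to 141 and from 90 to 79 bases before its start, and so held 4 E2F-type matches, more than any other start of the 7 genes. The matches of GINS1 and MCM2 lay just inside the transcribed part, from base 6 and base 3 after the start, and those of GINS3 and the near one of MCM3 spanned the start. For MCM7 the matches belonged to the most upstream of its 3 starts, and the other 2 starts had none. The 250 bases before the start are shown for GINS2, which kept 50.5% of its control level in sh-PNO1, and for MCM6, which rose, with E2F-type and CCAAT matches (either strand) in capitals.
GINS2, chr16:85688955-85689204 (-): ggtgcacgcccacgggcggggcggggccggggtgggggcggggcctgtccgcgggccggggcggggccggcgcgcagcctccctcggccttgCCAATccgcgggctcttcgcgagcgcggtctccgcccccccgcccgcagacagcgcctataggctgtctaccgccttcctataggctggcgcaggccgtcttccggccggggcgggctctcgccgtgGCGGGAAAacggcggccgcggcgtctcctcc
MCM6, chr2:135876444-135876693 (-): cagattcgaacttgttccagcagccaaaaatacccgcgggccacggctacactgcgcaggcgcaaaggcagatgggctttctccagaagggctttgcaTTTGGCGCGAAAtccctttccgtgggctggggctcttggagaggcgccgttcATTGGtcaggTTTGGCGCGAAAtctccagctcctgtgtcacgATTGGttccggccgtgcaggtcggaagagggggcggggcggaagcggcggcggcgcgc

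**Figure D1:**
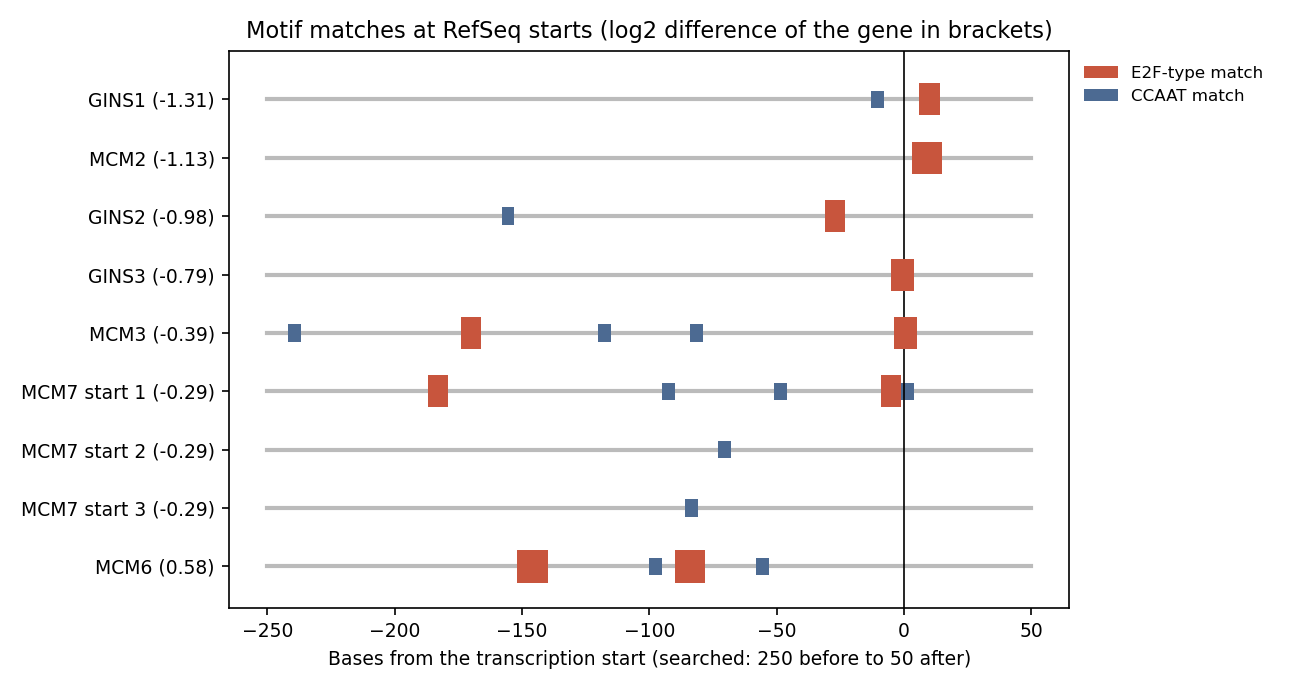
Positions of E2F-type (red) and CCAAT (blue) matches on either strand, in bases from the RefSeq start (grey line: the window searched), for the 9 starts of 7 genes, ordered by the log2 difference sh-PNO1 minus sh-Ctrl of the gene's brightest probe set, in brackets. Each of the 7 genes has a start with an E2F-type match, from GINS1 (−1.31) to MCM6 (0.58).

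Most of the helicase genes were lower in sh-PNO1. In the limma fit of all 49293 probe sets that were not controls, 26 of the 30 MCM and GINS probe sets fell at an adjusted p under 0.05 and 2 rose; over all probe sets 13.2% fell and 14.8% rose. The median log2 difference was −0.44 for the 30 and 0.01 for all probe sets. The 3 arrays of each group were fully separated in 28 probe sets, with sh-PNO1 lower in 26 and higher in 2, against 18.3% and 21.9% of all probe sets. For any such separation of 3 arrays from 3 a two-sided exact permutation test gives p = 0.1, the smallest value it allows. Falls of at least 2-fold were seen in 5 of the 30 probe sets and in 0.706% of all probe sets. Counted by the brightest probe set of each gene, 8 of the 10 genes fell and 1 rose, where 14.2% of all genes fell and 20.0% rose. With all probe sets of a gene averaged the counts were again 8 and 1, against 14.9% and 18.8% of all genes. When the arrays were scaled to equal means of housekeeping genes, which moved the median of all probe sets to 0.13, 24 probe sets fell and 3 rose, and MCM5 alone changed sign (0.068, not called). Without the sh-PNO1 replicate 2 array 25 probe sets fell and 2 rose.

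**Figure D2:**
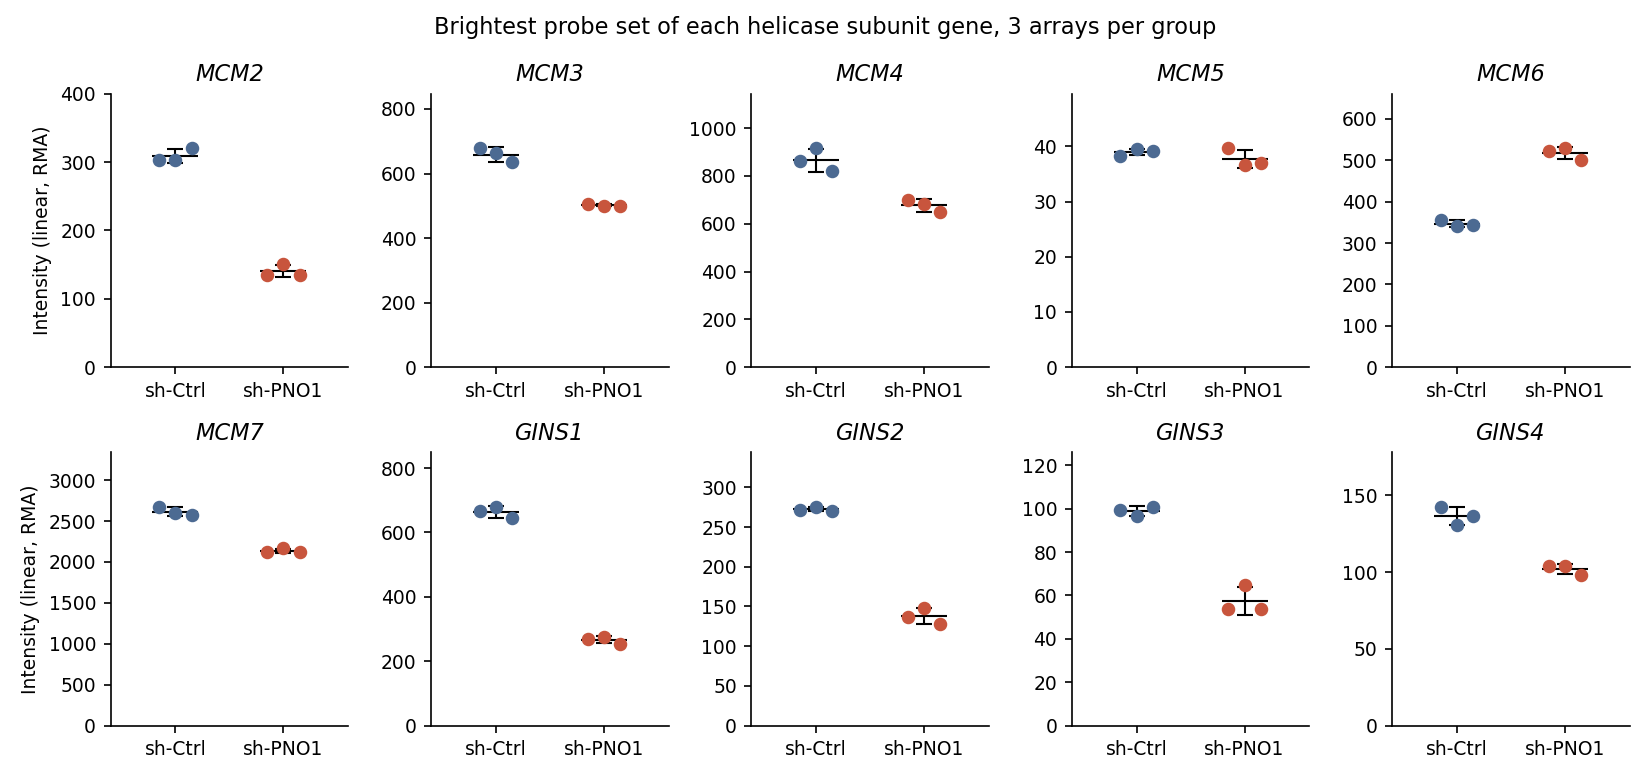
Intensity (linear scale, from 0) of the brightest probe set of each gene on each of the 3 sh-Ctrl (blue) and 3 sh-PNO1 (red) arrays; the line and bars are the mean and SD (n = 3). The groups do not overlap except for MCM5, and MCM6 is the gene with the higher level in sh-PNO1.

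MCM2, the ring subunit that also carries histones past the fork and forms the ring's gate with MCM5, had the largest fall of the ring. Its brightest probe set gave 303, 303 and 320.3 in sh-Ctrl and 135, 152 and 136 in sh-PNO1, a mean of 309 ± 10.1 against 141 ± 9.37 (SD, n = 3 each). The sh-PNO1 arrays were all far below the lowest sh-Ctrl array, with replicate 2 the highest of them. The log2 difference was −1.13 ± 0.06 SE (limma adjusted p = 9.45e-06), which left 45.5% of the control level. The other 3 probe sets of MCM2 also fell, by 0.67, 1.29 and 1.43 on the log2 scale. The last of these, 11746594_a_at, went from 140.02, 137 and 139 to 49.0, 53.9 and 51.4, and ranked 74th from the lowest of all probe sets.

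MCM3, which sits next to MCM5 in the ring, fell on all 4 of its probe sets. The brightest gave 678, 663 and 635 in sh-Ctrl and 505, 500.4 and 501 in sh-PNO1 (log2 difference −0.39 ± 0.04 SE, adjusted p = 0.00039). The groups were well apart, and the sh-PNO1 arrays were nearly equal. The other probe sets stood at −0.53, −0.36 and −0.16. The smallest of these falls, that of 11742996_a_at, lost its call when any of 4 arrays was left out: the adjusted p was 0.112 without sh-Ctrl replicate 1, 0.0979 without sh-Ctrl replicate 2, 0.0954 without sh-PNO1 replicate 2 and 0.103 without sh-PNO1 replicate 3. It was also lost with the housekeeping scaling (−0.05, adjusted p = 0.509).

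MCM4, with MCM6 and MCM7 part of the ring's catalytic core, fell on all 5 probe sets, from −0.35 on the brightest to −1.03 on the dimmest. The brightest, an _s_at set that can match several transcripts, gave 863, 916 and 820.1 in sh-Ctrl and 701, 682 and 649 in sh-PNO1 (−0.35 ± 0.06 SE, adjusted p = 0.00217). The dimmest gave 69.0, 78.4 and 78.3 against 38.8, 36.7 and 34.98 (−1.03 ± 0.07 SE, adjusted p = 2.5e-05). Neither pair of groups overlapped. The fall on the dimmest exceeded that on the brightest by 0.67 ± 0.07 SE, and this difference itself passed a test (limma adjusted p = 0.00108).

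MCM5, the partner of MCM2 at the gate, was represented by 1 dim probe set. It gave 38.3, 39.5 and 39.2 in sh-Ctrl and 39.7, 36.6 and 37.0 in sh-PNO1. The groups overlapped, since sh-PNO1 replicate 1 was the highest of all 6 arrays. The log2 difference was −0.05 ± 0.05 SE (95% interval −0.16 to 0.06, adjusted p = 0.52). Control probe sets without a target, which grow brighter with GC content, bracketed this level at 33.3 and 53.0, so it could not be judged here how much of it is MCM5 signal.

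MCM6 was higher in sh-PNO1, unlike MCM2, MCM3, MCM4 and MCM7. Its brightest probe set gave 357, 341 and 343 in sh-Ctrl and 523, 529 and 502 in sh-PNO1, a mean of 347 ± 8.76 against 518 ± 14.3 (SD, n = 3 each). Every sh-PNO1 array lay above every sh-Ctrl array. The rise was 1.49-fold (log2 difference 0.58 ± 0.05 SE, adjusted p = 6.24e-05). The dimmest probe set of MCM6 rose as well, from 25.9, 26.5 and 25.6 to 30.4, 29.8 and 29.98 (0.21 ± 0.04 SE, adjusted p = 0.00605). The third gave 42.8, 50.6 and 49.96 in sh-Ctrl and 50.6, 63.4 and 56.6 in sh-PNO1. There the groups met at 50.6, and the difference of 0.25 ± 0.10 SE did not pass (adjusted p = 0.0918). It passed without sh-PNO1 replicate 1 (0.33, adjusted p = 0.0499) and with the housekeeping scaling (0.36, adjusted p = 0.0091), and over all its alternatives the adjusted p ran from 0.0091 to 1. The average of the 3 probe sets rose by 0.35 (adjusted p = 0.000303).

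MCM7, the third subunit of the core, had the smallest fall that passed among the brightest probe sets. Its brightest probe set gave 2675, 2597 and 2575 in sh-Ctrl and 2122, 2167 and 2124 in sh-PNO1 (−0.29 ± 0.04 SE, adjusted p = 0.00131), so that 81.7% of the control level remained. The next, at 1785, 1727 and 1732 against 1427, 1431 and 1417, moved by the same amount (−0.29 ± 0.04 SE). On every array both lay above the mean of each of the 23 background control probe sets, of which the brightest was 773. The other pair of MCM7 probe sets fell by 0.43 and 0.46 on the log2 scale. No MCM7 array of sh-PNO1 overlapped sh-Ctrl on any of the 4.

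All 4 GINS genes fell, on 9 of 9 probe sets. GINS1 (PSF1), the subunit that helps to tie the complex to the polymerase that copies the leading strand, had the largest fall of the 10 genes by its brightest probe set. That set gave 667, 679.8 and 644 in sh-Ctrl and 270.1, 277 and 255 in sh-PNO1, a mean of 664 ± 17.9 against 267 ± 11.3 (SD, n = 3 each). The sh-PNO1 values kept 40.2% of the control level (−1.31 ± 0.05 SE, adjusted p = 3.12e-06), and GINS1 ranked 51st from the lowest of all genes. Its other probe sets were dim. One went from 14.5, 13.8 and 12.5 to 9.20, 10.6 and 10.3 (−0.44 ± 0.07 SE, adjusted p = 0.00284). The other, 11749970_a_at, went from 21.3, 19.8 and 17.8 to 16.3, 16.3 and 15.1 (−0.30 ± 0.07 SE, adjusted p = 0.0145), and lost its call without sh-Ctrl replicate 2 (adjusted p = 0.0576), without sh-PNO1 replicate 3 (0.0601) or with the housekeeping scaling (−0.19, 0.0574). The groups did not overlap on either.

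GINS2 (PSF2) gave 272, 276 and 270.4 in sh-Ctrl and 137, 149 and 128 in sh-PNO1 on its only probe set. All sh-PNO1 arrays were near a 2-fold reduction, with 50.5% of the control level left (−0.98 ± 0.06 SE, adjusted p = 1.78e-05). GINS3 (PSF3), also with 1 probe set, gave 99.4, 96.6 and 100.9 in sh-Ctrl and 53.7, 64.9 and 54.0 in sh-PNO1 (−0.79 ± 0.08 SE, adjusted p = 0.000179). The sh-PNO1 replicate 2 array was the highest of its group for both genes, and without it GINS3 stood at −0.88. GINS4 (SLD5) fell least of the 4. Its brightest probe set gave 143, 131 and 137 in sh-Ctrl and 104, 104 and 98.2 in sh-PNO1 (−0.42 ± 0.05 SE, adjusted p = 0.000568), and its other probe sets stood at −0.63, −0.32 and −0.30. The set at −0.63 was dim, with means of 24.0 in sh-Ctrl and 15.5 in sh-PNO1. Background control probe sets reached such levels as well (19.9 and 28.4 among them). None of the GINS4 probe sets had overlapping groups.

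**Figure D3:**
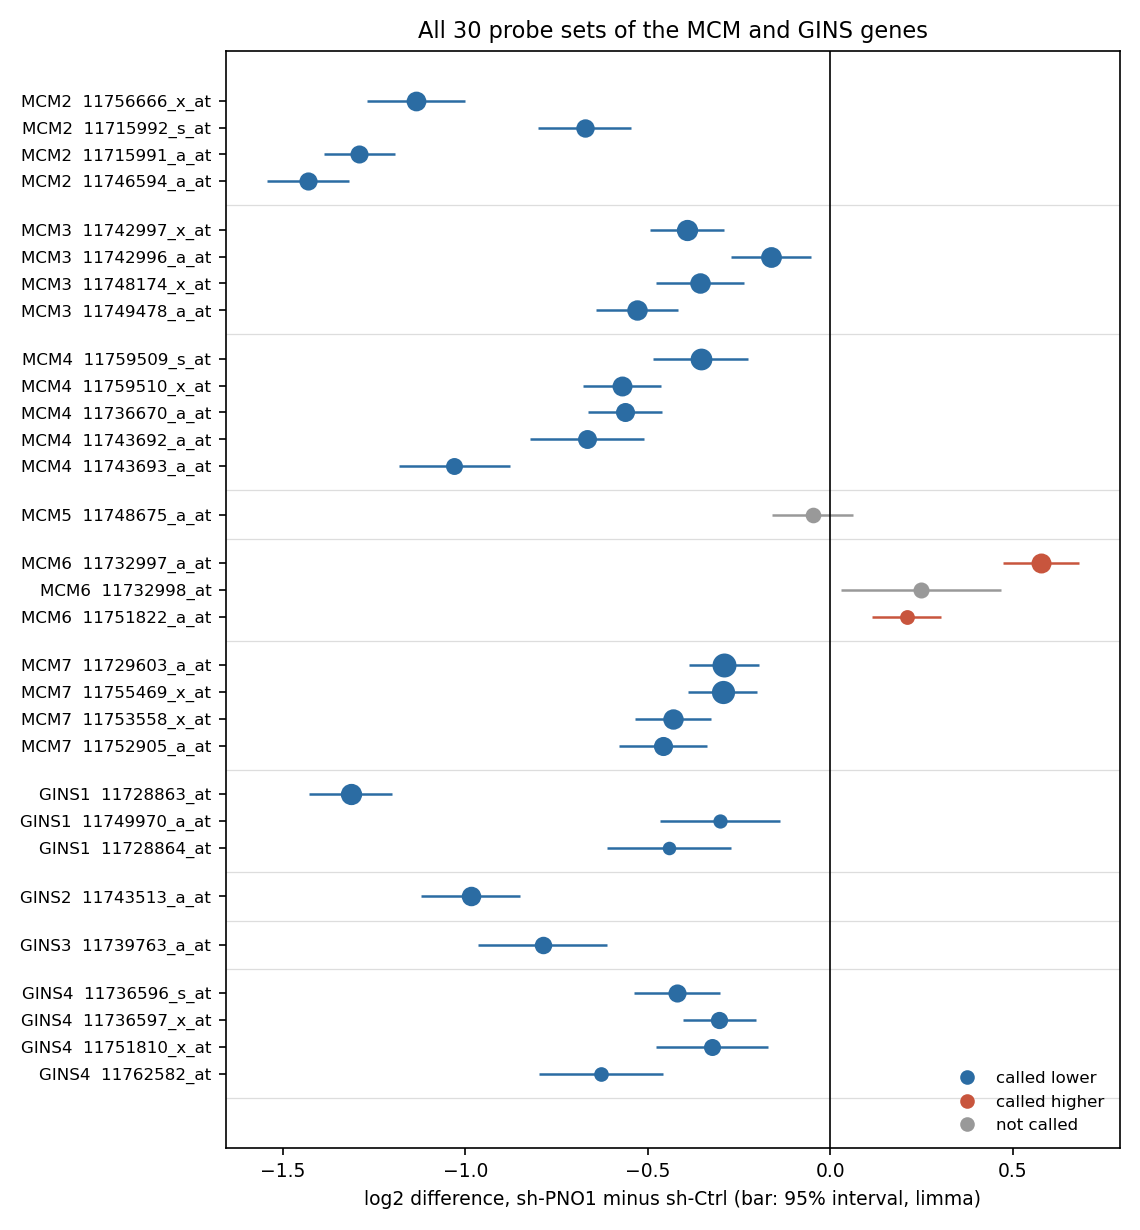
Log2 difference sh-PNO1 minus sh-Ctrl of all 30 probe sets, grouped by gene and ordered by brightness within a gene, with 95% intervals from limma; larger dots are brighter in sh-Ctrl, and colour gives the call at an adjusted p under 0.05. The 26 blue dots lie left of 0, and the 3 MCM6 probe sets lie right of 0, 2 of them called; MCM5, in grey, turns to 0.068 with the housekeeping scaling.

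Ordered by the log2 difference of the brightest probe set, the genes ran GINS1, MCM2, GINS2, GINS3, GINS4, MCM3, MCM4, MCM7, MCM5 and MCM6. The 95% intervals of neighbours overlapped except between GINS3 (−0.96 to −0.61) and GINS4 (−0.53 to −0.31), between MCM7 (−0.38 to −0.20) and MCM5 (−0.15 to 0.06), and between MCM5 and MCM6 (0.48 to 0.68). Within the ring the brightest probe sets moved by unequal amounts. MCM2 fell by 1.13 on the log2 scale, MCM3, MCM4 and MCM7 by 0.29 to 0.39, and MCM6 rose. Differences between genes were not tested. The order partly rests on which probe set stands for a gene. The brightest sets of MCM2 and MCM3 were _x_at sets and those of MCM4 and GINS4 _s_at sets, which can match several transcripts. With the probe sets of each gene averaged, GINS1 stood at −0.69, MCM2 at −1.13 and MCM4 at −0.64.

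Unequal differences between probe sets of a gene were tested on the per-array difference between the brightest and each other probe set of a gene. Of 20 such pairs in 7 helicase genes 7 passed, where 14.9% of all pairs did. In GINS1 the brightest probe set fell by 1.01 ± 0.07 SE more than 11749970_a_at (limma adjusted p = 0.000124) and by 0.87 ± 0.08 SE more than 11728864_at (adjusted p = 0.00044). In MCM2 the brightest fell by 0.46 more than 11715992_s_at and by 0.30 less than 11746594_a_at, in MCM3 it fell by 0.23 more than 11742996_a_at, and in MCM6 it rose by 0.37 ± 0.06 SE more than the dimmest (adjusted p = 0.00545). No pair of MCM7 or GINS4 passed. When 16 was added to each intensity before the logarithm 12 pairs passed. The dim GINS1 probe sets had no array above 21.3, and the dimmest MCM6 set none above 30.4, levels that background control probe sets reached as well (19.9, 28.4 and 33.3 among them). The other sets of the MCM2 and MCM3 pairs that passed were brighter, with sh-Ctrl means of 157 and 139 for MCM2 and 520 for MCM3. Which transcripts each probe set matches was not examined. All these gaps are thus reported as differences between probe set values, and do not show that transcripts of a gene changed by different amounts.

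The factors that act with the helicase were examined through lists written from textbook knowledge, by the brightest probe set of each gene. Earlier results of these data were known when the lists were chosen. Over all 18132 genes 14.2% fell and 20.0% rose, with a median log2 difference of 0.03, and each list count is set against these shares. Of 9 genes that act in loading the ring at origins 8 fell and 1 rose, with a median of −0.34; those that fell include GMNN (geminin, −0.34), an inhibitor of loading. The origin recognition subunits ORC6 (−0.91 ± 0.07 SE, adjusted p = 3.94e-05) and ORC1 (−0.65), the loader CDC6 (−0.76) and ORC2 (−0.37) had the smallest adjusted p, and ORC4 rose (0.20). Of 14 genes that activate the helicase 10 fell and 1 rose, with a median of −0.42. MCM10, which binds the ring as it is switched on, fell from 338 to 147 (−1.20 ± 0.06 SE, adjusted p = 7.38e-06), MTBP by 0.79, its partner TICRR by 0.64 and TOPBP1 by 0.52 on the log2 scale, while cyclin E1 (CCNE1) rose by 0.23. TICRR, with 1 probe set, had means of 28.1 in sh-Ctrl and 18.1 in sh-PNO1. Background control probe sets stood at 28.4 and 19.9, so it could not be judged how much of these levels is TICRR signal. CDC45, named here as the remaining component of the CMG helicase and not by the rule for named genes, fell on 3 of 3 probe sets (−0.47 ± 0.07 SE, adjusted p = 0.00143).

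Among 22 fork partners 19 fell and 2 rose, with a median of −0.47. RFC5 (−1.26), a clamp loader subunit, and POLE2 (−0.93), the polymerase epsilon subunit that contacts GINS, fell with the smallest adjusted p. POLA1 and PRIM2 of the primase complex fell by 0.67 and 0.72 on the log2 scale. The genes that rose were POLE4 (0.44), an accessory subunit of polymerase epsilon, and POLD2 (0.18). Of 8 genes that take the helicase off DNA after replication 2 fell and 1 rose, counts not far from the shares over all genes. LRR1 (−0.30), which guides a ubiquitin ligase to the ring, and TRAIP (−0.34), another ligase, fell, FAF1 rose (0.31), and the list's median was −0.01. With probe sets averaged, TRAIP was no longer called (−0.11, adjusted p = 0.166). Of 5 genes with MCM in their names but outside the ring, MCMBP, which binds MCM proteins off DNA, fell by 0.58, MCM8 by 0.42, MCM9 by 0.32 and MCM3AP by 0.16 on the log2 scale; MCMDC2, at a mean of 4.23 in sh-Ctrl, was not called. Without sh-PNO1 replicate 2 the last list had 3 lower genes; the loading, activation, fork and unloading counts were the same without it.

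Of 16 genes of the E2F and RB families and the associated MuvB and MYB proteins (LIN9, LIN54 and MYBL2) 6 fell and 2 rose, with a median of −0.12. The activator E2F2 fell by 0.37 and E2F3 by 0.27 on the log2 scale, the repressor E2F7 by 0.47 and E2F5 by 0.36. E2F1, with 1 probe set, had means of 41.9 in sh-Ctrl and 38.8 in sh-PNO1 and did not pass (−0.11, adjusted p = 0.277). Background control probe sets bracketed these levels at 33.3 and 53.0, so it could not be judged how much of them is E2F1 signal. The genes that rose were the MuvB subunit LIN54 (0.15) and the E2F partner TFDP2 (0.22), and neither stayed called without the sh-PNO1 replicate 2 array or with probe sets averaged, where TFDP2 fell (−0.20, adjusted p = 0.0166). In that averaged fit 11 genes of the list fell and 0 rose, where 14.9% of all genes fell and 18.8% rose. An E2F-type match lay at a start of 4 of the 9 loading genes, 2 of 9 activation genes, 9 of 21 fork partners, 1 of 7 unloading genes, 2 of 4 MCM-named genes and 5 of 14 genes of the E2F, RB and MuvB list, each out of those with a promoter entry. Over all genes tested it was 797 of 14425 (5.53%).

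**Figure D4:**
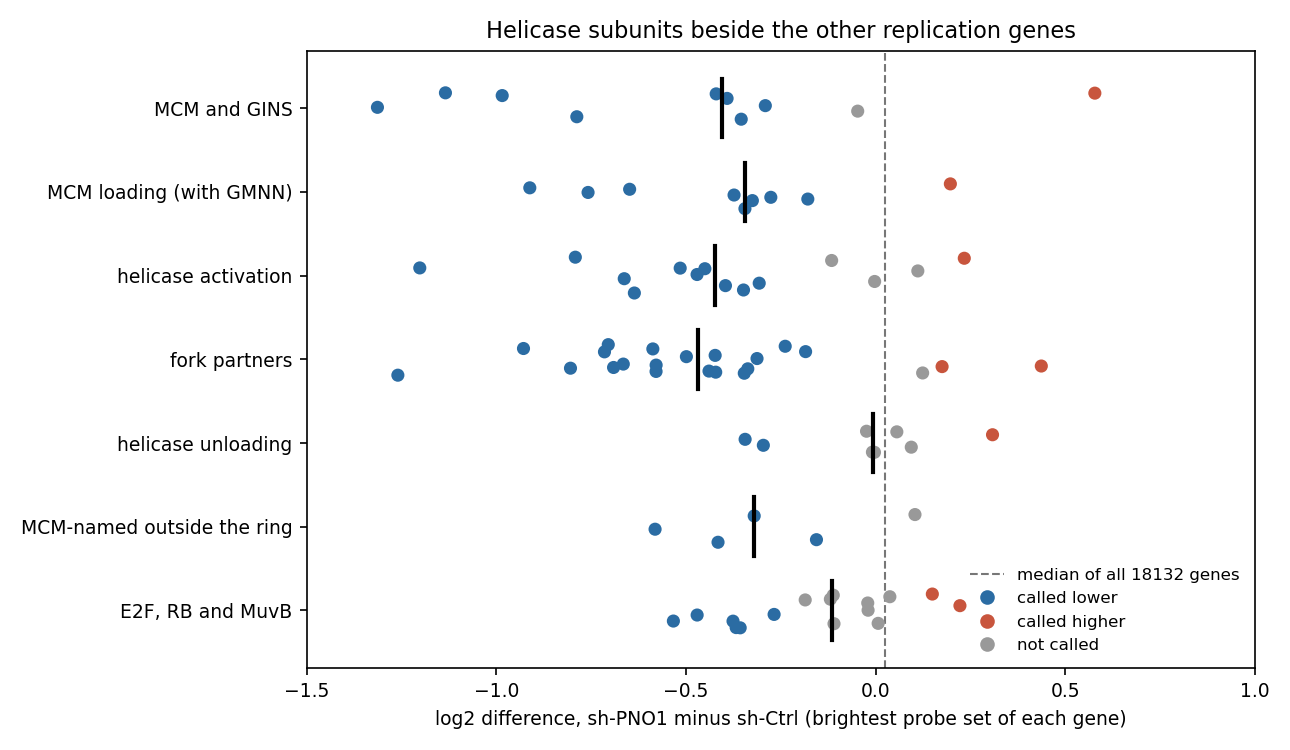
Log2 difference sh-PNO1 minus sh-Ctrl by the brightest probe set, 1 dot a gene (vertical scatter has no meaning), for the helicase genes and 6 lists of related genes; black bars are list medians and the dashed line is the median of all genes (0.03). The helicase, loading, activation and fork lists have medians of −0.34 to −0.47, and the unloading list one of −0.01; MCM5 (−0.05) turns to 0.068 with the housekeeping scaling.

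Among other genes with a log2 difference of at least 0.5 in size, those whose levels ran most like the mean of the 10 standardised helicase genes over the 6 arrays were WWP2, RAD54B, SEL1L3, TCTN1 and ANLN, with Pearson r from 0.9977 to 0.9988. They were picked from 1243 genes, and the 6 points fall into 2 groups, so the value mostly describes the group difference.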

How the data were processed

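RNA from 6 samples was hybridised to Affymetrix arrays from 100 ng of total RNA, as the labels' protocols state. The authors deposited linear intensities, made with RMA per the submitters' processing notes (software, version and background step not given in the sources used here). Groups and replicate numbers came from the sample titles. Log2 was taken, and the 49293 probe sets that are not controls were fitted in limma 3.58.1 (R 4.3.3) with lmFit and eBayes, sh-PNO1 minus sh-Ctrl, with no covariate and Benjamini-Hochberg adjustment over all of them; a probe set was called at an adjusted p under 0.05. The same fit was made with 1 probe set a gene (single symbol, highest mean; 18132 genes), with probe sets averaged, and on differences between probe sets of a gene. The fit was also run on simulated data with independent normal noise and shifts of known size. That run checks the fitting steps only, and does not bear on dependence between the real arrays. Gene names came from the platform's table. Promoter sequences are those of RefSeq, GRCh38.p14.

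Because RMA makes arrays alike in distribution, a change is measured against the rest of the array. No detection calls were used, so dim probe sets were kept. The number of arrays limits the precision. The members and lists were chosen with earlier results of these data known. Named genes were every member, PNO1, up to 4 called genes of each list with the smallest adjusted p, genes called against the direction of most of a list where these were 3 or fewer, and the 5 genes most like the members. CDC45, E2F1, MCMDC2, TPRA1 and AP4M1 were named after their values were seen. GMNN was also named outside this rule, as an inhibitor in the loading list. Alternatives were the replicate block, array weights, eBayes with trend and robust options, 3 scalings (quantile normalisation, equal medians, equal housekeeping means), the dimmest 30% left out, log2 of intensity plus 16, an adjusted p under 0.01, treat against 0.5, other ways to combine probe sets, the suffixes _x_at and _s_at left out, and each array left out.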

Additional observations from a re-analysis of the deposited data

How the results depend on the processing

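The gene counts, 8 lower and 1 higher, were the same under every setting tried on them but treat, a test against a log2 change of 0.5 in place of 0: there 3 genes were lower (GINS1, MCM2 and GINS2) and 0 higher, and 6 probe sets were lower and 0 higher. Leaving out each array gave 24 to 26 lower and 2 to 3 higher probe sets. Without the suffixes _x_at and _s_at 15 of 19 probe sets were lower, the same number as among these 19 in the fit of all. The housekeeping scaling turned MCM5 to 0.068 and moved the share of lower calls among all called probe sets from 47.0% to 18.1%. Averaging probe sets gave 2 unloading genes higher, and 11 genes of the E2F, RB and MuvB list lower and 0 higher. Without sh-PNO1 replicate 2 that list had 0 genes higher. With 16 added to intensities 12 pairs of probe sets differed; with single arrays left out 5 to 6 did. Arrays of equal number did not deviate together (r = −0.04, 0.10 and −0.03), so the numbers were not taken as pairs; with the replicate block 25 probe sets were lower and 3 higher, as 11742996_a_at of MCM3 (adjusted p = 0.0522) lost its call and 11732998_at of MCM6 (adjusted p = 0.0165) gained one. The cause of these shifts was not tested. GC content of the probes was not used, so the signal of MCM5 and of other dim probe sets over background is unknown.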

Other observations

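Over all genes with a promoter entry, 797 had an E2F-type match at a start. Of these 23.7% were lower and 21.96% higher in sh-PNO1, with a median log2 difference of 0.003. Of the 13628 genes without a match 14.3% were lower and 20.7% higher, with a median of 0.03. The difference between these shares was not tested.

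Among the 7 helicase genes with a promoter entry, MCM2 and MCM7 lie head to head with another gene nearby. By its brightest probe set that gene was not called in either case. Neighbours of MCM4, MCM5 and GINS4, which had no entry, were not searched. TPRA1 starts 180 bases from MCM2 on the other strand and stood at −0.01 ± 0.06 SE (limma adjusted p = 0.912, against −1.13 for MCM2). Its 1 probe set had means of 33.7 in sh-Ctrl and 33.5 in sh-PNO1. A background control probe set stood at 33.3, so it could not be judged how much of this level is TPRA1 signal. AP4M1 has starts 246 bases from the most upstream start of MCM7 and, at the closest, 40 bases from another, and stood at −0.11 ± 0.06 SE (adjusted p = 0.186; MCM7 −0.29). With its 5 probe sets averaged AP4M1 was called lower (−0.20, adjusted p = 0.036). They were looked up by position after the values of the helicase genes were known, and the difference within each pair was not tested.

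Within its group the sh-PNO1 replicate 2 array was on average 0.03 above and replicate 3 was 0.03 below the group mean over the 30 helicase probe sets on the log2 scale. Replicates 1 and 2 were each the highest sh-PNO1 array for 14 of the 30, and replicate 3 for 2, with ties counted for the lower replicate number. Replicate 1 tied with replicate 2 on 11749970_a_at of GINS1 and with replicate 3 on 11759510_x_at of MCM4. The sh-Ctrl arrays deviated by −0.02 to 0.01.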
